A study of Sus scrofa with 6 samples.

Results

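The genes described here are EIF2AK1, EIF2AK2 and EIF2AK3, which encode protein kinases that phosphorylate the alpha subunit of the translation initiation factor eIF2. They were taken by name, as every probe whose only gene symbol is one of these names. Each has 1 probe, so that 3 of the 12258 probes with deposited values are concerned, and "all probes" below means these 12258. EIF2AK1 is probe 15273143, EIF2AK2 is probe 15271947 and EIF2AK3 is probe 15270573. EIF2AK4, the remaining kinase of the family, was not analysed here.

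The matured group comprised 3 pools of oocytes that had been cultured inside their cumulus cells for 44 h at 38 °C under 5% CO2, in a medium with 10% follicular fluid and with hCG and eCG at 2.5 IU/ml each. The group before maturation comprised 3 pools that had not been cultured, which the sample titles call in vivo. Each pool held 50 oocytes of crossbred Landrace gilts at puberty, and 100 ng of total RNA per pool was amplified in 2 rounds and hybridised to a 1-colour Affymetrix array. All pools came from oocytes graded as the best by morphology. A dye test for sorting oocytes is named in the design without being tied to any sample, and the labels do not say how far cumulus cells were removed before RNA extraction.

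The kinases share a catalytic domain and differ in what activates them. EIF2AK1 (also called HRI) responds to lack of haem and to mitochondrial stress, EIF2AK2 (PKR) binds double-stranded RNA and is induced by interferon, and EIF2AK3 (PERK) spans the membrane of the endoplasmic reticulum and senses unfolded proteins there. Phosphorylated eIF2 blocks its own exchange factor, eIF2B, which lowers initiation in general but favours translation of a few mRNAs such as that of the transcription factor ATF4. A fully grown oocyte makes little new RNA and matures on stored mRNA, so that control of translation carries much of its gene regulation. Transcript levels were measured here, and neither kinase activity nor phosphorylation of eIF2 was.

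The arrays had median log2 levels of 5.62 to 5.64 after maturation and 5.67 to 5.70 before it, and their lower quartiles lay at 4.33 to 4.45 after and 4.27 to 4.30 before. Of all probes 3.21% were called higher and 8.07% lower at a limma adjusted p under 0.05, and the log2 difference of the median probe was 0.08. The split was 394 higher and 989 lower on the deposited scale, 915 and 891 with medians of the arrays made equal, 596 and 866 after a second quantile normalization, and 9989 and 479 with ribosomal protein genes held level, a scaling that moves the median probe to 0.61. Replicate 3 before maturation stood farthest from the others, with correlations of 0.965 to 0.970 to the matured arrays and 0.989 to 0.992 to its own group. Precision is limited throughout by having 3 arrays per group, for which the smallest two-sided p of an exact permutation test is 0.1.

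All 3 kinase transcripts had lower values on every array after maturation than on any array before it, and the test called EIF2AK3 and EIF2AK1 lower but not EIF2AK2. No overlap between the groups was seen for 36.1% of all probes, 14.4% in the lower direction and 21.7% in the higher one. Of all probes 2.24% had a more negative difference than EIF2AK3, 3.72% than EIF2AK1 and 12.2% than EIF2AK2. In pooled oocytes less RNA of a gene per cell and fewer cells that carry it cannot be told apart.

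EIF2AK3, the sensor in the endoplasmic reticulum, had log2 levels of 5.10, 5.28 and 5.56 after maturation, against 6.70, 6.17 and 6.83 before it. The highest matured array thus lay below the lowest array before maturation by more than the spread of the matured arrays. The means were 5.31 ± 0.23 after and 6.57 ± 0.35 before (SD, n = 3 each), a log2 difference of -1.26 (SE 0.19, limma adjusted p = 0.00432) or a 2.39-fold lower level. Same-numbered arrays differed by -1.61, -0.89 and -1.27, all in the same direction. The call held without any one of the 6 arrays, with values from -1.46 to -1.12 and adjusted p from 0.00164 to 0.0276. With ribosomal protein genes held level it was still called, at -0.73 (limma adjusted p = 7.30e-04).

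EIF2AK1, the haem-regulated kinase, had log2 levels of 4.21, 3.90 and 4.62 after maturation, against 5.16, 4.98 and 5.33 before it. The groups were 4.24 ± 0.36 and 5.16 ± 0.18 (SD, n = 3 each), which gives a log2 difference of -0.91 (SE 0.18, limma adjusted p = 0.0159) or a 1.88-fold lower level. Of the matured arrays 2 lay under their own array's lower quartile, and background was not assessed, so this fold is not exact. The pairs of the same number differed by -0.95, -1.07 and -0.71. The call was lost without replicate 1 or 2 after maturation (-0.89 and -0.74, limma adjusted p = 0.0722 and 0.0522), and with ribosomal protein genes held level the difference was -0.39 (limma adjusted p = 0.0326).

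EIF2AK2, the kinase that binds double-stranded RNA, had log2 levels of 8.46, 8.60 and 8.64 after maturation, against 8.74, 8.85 and 9.15 before it. The groups stood apart by a narrow margin, and the matured arrays lay close together. The means of 8.57 ± 0.09 after and 8.91 ± 0.21 before (SD, n = 3 each) differ by -0.35 (SE 0.12), which did not pass the test (limma adjusted p = 0.109). Pairs of the same number differed by -0.28, -0.25 and -0.52, and the sign turned to 0.18 with ribosomal protein genes held level (limma adjusted p = 0.287). A p above the threshold does not show that the level was unchanged.

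**Figure D1:**
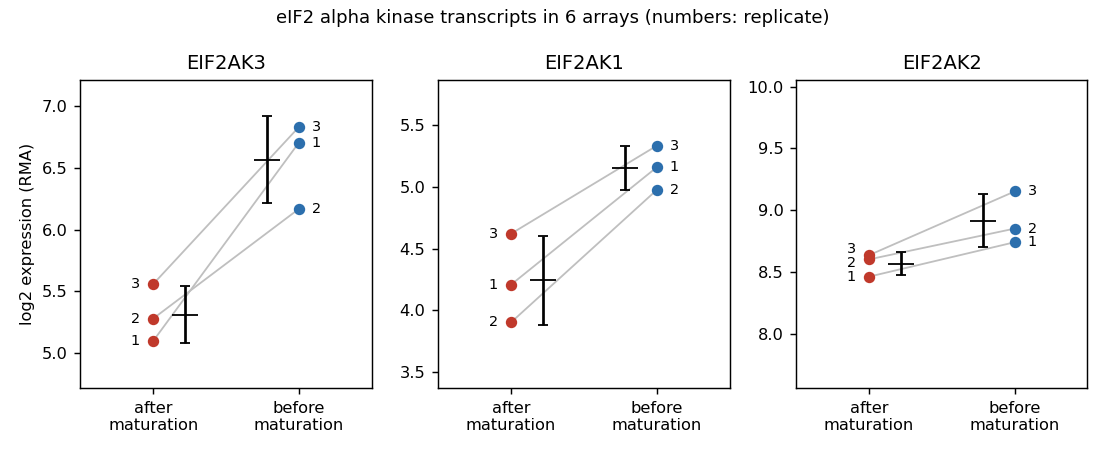
Log2 expression (vertical axis, RMA values) of EIF2AK3, EIF2AK1 and EIF2AK2 on the 3 arrays after maturation (red) and the 3 before it (blue), with replicate numbers, grey lines joining arrays of the same number and black bars for mean ± SD. The vertical axes span the same range of log2 units at different heights, and in each panel all matured arrays lie below all arrays before maturation.

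The transcripts were set against each other by their changes, since levels of different probes cannot be compared. A difference of this kind is taken within each array and does not depend on a shift of a whole array. The change of EIF2AK3 minus that of EIF2AK2 was -0.91 (SE 0.21) and that of EIF2AK1 minus EIF2AK2 was -0.56 (SE 0.22), with no overlap between the groups in either case. Both gave the smallest p that the exact permutation test allows here (two-sided p = 0.1, 0.15 adjusted over the 3 pairs), so neither can pass. The change of EIF2AK3 minus that of EIF2AK1 was -0.34 (SE 0.19), the groups overlapped, and the exact permutation p was 0.2 (0.2 adjusted). It was negative in the pairs of replicates 1 and 3 (-0.66 and -0.56) and positive in that of replicate 2 (0.18).

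Across the 6 arrays the profile of EIF2AK3 had a Pearson correlation of 0.943 with that of EIF2AK1 and 0.855 with that of EIF2AK2, and EIF2AK1 and EIF2AK2 had one of 0.811. These describe 6 points that fall into 2 groups, and the arrays share their amplification and scaling. Among 9877 other named probes 678 correlated above 0.9 with EIF2AK3, 495 with EIF2AK1 and 550 with EIF2AK2, so a likeness of this size was common. The most alike for EIF2AK3 were IQGAP1, a cytoskeletal scaffold gene (r = 0.998), the adhesion gene CD58 (r = 0.997) and the plexin gene PLXNA2 (r = 0.996). For EIF2AK1 they were NUCB2, which encodes a calcium-binding nucleobindin (r = 0.996), SIKE1 (r = 0.995) and RPLP1, a ribosomal stalk gene (r = 0.993). For EIF2AK2 they were UAP1, an enzyme gene of amino sugar synthesis (r = 0.997), the clathrin heavy chain gene CLTC (r = 0.997) and the lactate dehydrogenase gene LDHA (r = 0.996). Of these 9 genes 7 were called lower, against 8.07% of all probes. They were picked for following kinases that were lower on every matured array, so a lower value was built into the choice. The count is therefore no separate result. CLTC and LDHA were not called, although LDHA was with the replicate number as a block (-0.62, limma adjusted p = 0.0167).

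Genes next to the kinases in the RefSeq order of assembly Sscrofa11.1 did not pass the test where they were measured. ANKRD61, whose annotated span overlaps that of EIF2AK1, had a log2 difference of 0.13 (limma adjusted p = 0.465). GPATCH11, beside EIF2AK2, had one of -0.35 (limma adjusted p = 0.105), close to that of the kinase itself. RPIA and TEX37, on the sides of EIF2AK3, had values of 0.10 and 0.20 (limma adjusted p = 0.504 and 0.288). These neighbours were added after the data had been seen.

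Genes listed as regulators of the kinases fell in 3 of 14 measured cases and rose in 1, against 8.07% and 3.21% of all probes. Their median log2 difference was -0.04 against 0.08. The list also holds ERN1 and ATF6, which are sensors beside EIF2AK3 rather than its regulators, and neither was called. The 4 calls became 1 without replicate 1 after maturation, and 2 without replicate 2 or 3 of either group. HSPA5, which encodes the chaperone BiP that holds EIF2AK3 inactive, had levels of 10.10, 9.90 and 10.04 after maturation, against 11.27, 10.81 and 10.92 before it. It fell by 0.99 (SE 0.13, limma adjusted p = 0.00249), with all matured arrays below all others. PRKRA, whose product PACT activates EIF2AK2, fell by 0.66 (SE 0.18, limma adjusted p = 0.0481). That call was lost with several settings and 5 single arrays, and the adjusted p reached 0.158 without replicate 1 after maturation. ADAR, an RNA-editing enzyme gene whose product keeps double-stranded RNA from activating EIF2AK2, was the regulator that rose, with levels of 9.83, 9.72 and 9.84 after maturation, against 9.54, 9.31 and 9.32 before it. The difference was 0.41 (SE 0.10, limma adjusted p = 0.0357), and without replicate 1 after maturation the adjusted p was 0.120. HSPA8, a constitutive chaperone gene, fell by 0.47 (SE 0.09, limma adjusted p = 0.0109), and its value turned to 0.06 with ribosomal protein genes held level.

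Of 11 measured genes of eIF2, eIF2B and related start factors 1 fell and 0 rose with limma (3 and 0 at an unadjusted p under 0.05), with a median of -0.05. The called share of 9.09% lies near the 11.3% of all probes called in either direction. EIF2S1, which encodes the phosphorylated alpha subunit itself, had levels of 6.27, 6.38 and 6.69 after maturation, against 6.48, 6.60 and 6.89 before it. These ranges overlap, while same-numbered arrays differed by -0.21, -0.22 and -0.20, all in one direction. The difference of -0.21 (SE 0.15) did not pass the test (limma adjusted p = 0.368), nor did it with the replicate number as a block (SE 0.09, limma adjusted p = 0.164), and it became 0.32 with ribosomal protein genes held level (limma adjusted p = 0.0638). EIF2B2, the beta subunit gene of eIF2B, was the one that fell, by 0.55 (SE 0.14, limma adjusted p = 0.0399), and the call was lost after a second quantile normalization, with ribosomal protein genes held level (-0.03) and without any of 4 single arrays. EIF2B5, the catalytic subunit gene, had a value of -0.05 (limma adjusted p = 0.762) and EIF1AX, a scanning factor gene, one of -0.35 (limma adjusted p = 0.0938). Without replicate 1 or 3 after maturation or replicate 2 before it 0 of the 11 genes were called.

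Of 5 genes for the phosphatase that removes the phosphate from eIF2, 2 fell and 0 rose with limma (2 and 0 at an unadjusted p under 0.05), against 8.07% and 3.21% of all probes. Those called encode the targeting subunits, the other 3 encode catalytic subunits of protein phosphatase 1, and the difference between these was not tested. PPP1R15B, the subunit present without stress, had levels of 6.51, 6.18 and 6.99 after maturation, against 7.89, 7.25 and 8.40 before it. It fell by 1.28 (SE 0.29, limma adjusted p = 0.0284), and all matured arrays lay below the others. PPP1R15A, the stress-induced subunit also known as GADD34, had levels of 6.82, 6.78 and 6.53 after maturation, against 8.16, 7.36 and 7.46 before it. It fell by 0.96 (SE 0.20, limma adjusted p = 0.0209). The call of each was lost without some single matured arrays, with adjusted p up to 0.110 for PPP1R15B and 0.0704 for PPP1R15A. Without replicate 1 or 2 after maturation 0 of the 5 phosphatase genes were called, and 1 was without replicate 3 of either group. PPP1CC, a catalytic subunit gene, had a value of 0.05 (limma adjusted p = 0.878). The transcripts for the kinases EIF2AK3 and EIF2AK1 and for both subunits that direct the opposing phosphatase were lower in the matured pools.

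**Figure D2:**
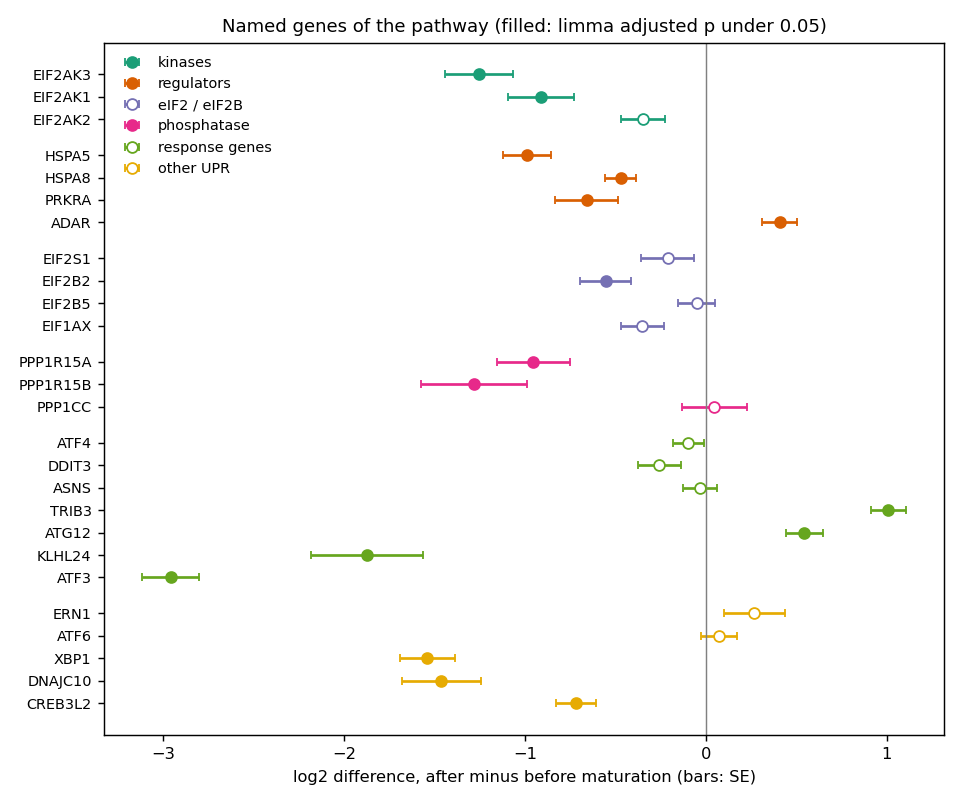
Log2 difference, after minus before maturation (horizontal axis), with bars for the standard error, of named genes by their role around the kinases, where UPR stands for the unfolded protein response. Filled circles passed the test at a limma adjusted p under 0.05. The kinases, the phosphatase subunits PPP1R15A and PPP1R15B, HSPA5 and XBP1 lie to the left of 0, and TRIB3, ATG12 and ADAR are the filled points to the right.

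Response genes of the eIF2 and ATF4 pathway moved in both directions. Among the 28 that were measured, 5 rose and 4 fell with limma (10 and 5 at an unadjusted p under 0.05), leaving 19 that were not called. The called share was 32.1%, against 11.3% of all probes in either direction, and the median was 0.18 against 0.08. The 9 calls became 5 without replicate 1 or 2 after maturation, and with ribosomal protein genes held level 22 were called higher and 3 lower. ATF4 itself had levels of 10.52, 10.51 and 10.61 after maturation, against 10.61, 10.68 and 10.65 before it, which overlap. Its difference of -0.10 (SE 0.09, limma adjusted p = 0.474) was not called on the deposited scale and became 0.43 and was called with ribosomal protein genes held level (limma adjusted p = 0.0120). DDIT3, the gene of the pro-apoptotic factor CHOP, had a value of -0.26 (limma adjusted p = 0.189), and the asparagine synthetase gene ASNS one of -0.03 (limma adjusted p = 0.842). ASNS became 0.49 under that same scaling and was called.

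TRIB3, a pseudokinase gene induced through ATF4, had levels of 6.34, 6.39 and 6.33 after maturation, against 5.25, 5.50 and 5.29 before it. It rose by 1.01 (SE 0.10, limma adjusted p = 5.10e-04), a 2.01-fold higher level, and kept its call without any one array. ATG12, an autophagy gene, rose by 0.54 (SE 0.10, limma adjusted p = 0.0123), and the call was lost without replicate 1 or 2 after maturation (limma adjusted p = 0.0620 and 0.0523). The other genes that rose were PSAT1 (0.71) and PHGDH (0.55), of serine synthesis, and SESN2 (0.52), a stress-induced inhibitor of mTORC1 signalling. ATF3, a stress-induced transcription factor gene, showed the largest decrease of this list. Its levels were 5.93, 5.47 and 6.10 after maturation, against 8.84, 8.70 and 8.84 before it, a log2 difference of -2.96 (SE 0.16, limma adjusted p = 1.87e-05). KLHL24, a ubiquitin ligase adaptor gene, fell by 1.88 (SE 0.31, limma adjusted p = 0.00672), and the others that fell were PPP1R15A, as given above, and the lipoprotein receptor gene VLDLR (-0.56). PSAT1, PHGDH, SESN2 and VLDLR were named after their values had been seen.

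The other branches of the unfolded protein response, which work beside EIF2AK3 in the endoplasmic reticulum, held 11 genes that fell and 0 that rose among 30 measured with limma (13 and 2 at an unadjusted p under 0.05), with a median of -0.30. The called share was 36.7%, against 8.07% of all probes called lower and 3.21% called higher. Without the dimmest 50% of probes, 10 of 29 genes were called lower and 0 higher, against 780 and 211 of 6129 probes. HSPA5, which is among those that fell, ERN1 and ATF6 are counted in the list of regulators as well. XBP1, the transcription factor gene whose mRNA the sensor ERN1 splices, had levels of 5.91, 5.97 and 6.13 after maturation, against 7.59, 7.22 and 7.83 before it. It fell by 1.54 (SE 0.15, limma adjusted p = 5.48e-04), more than 1 log2 unit separating the groups. DNAJC10, a disulfide reductase gene of the endoplasmic reticulum, fell by 1.46 (SE 0.22, limma adjusted p = 0.00436), and CREB3L2, a transcription factor gene, by 0.72 (SE 0.11, limma adjusted p = 0.00498). The call of CREB3L2 was lost with ribosomal protein genes held level (-0.19). The other sensors of this response, ERN1 and ATF6, had values of 0.27 (SE 0.17) and 0.07 (SE 0.10), with overlapping groups (limma adjusted p = 0.315 and 0.644), and their difference from EIF2AK3 was not tested. The count of 11 became 4 to 5 without any one matured array and 7 without replicate 3 before maturation. With ribosomal protein genes held level the direction was mostly the other one, with 12 of the 30 genes called higher and 3 lower.

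Interferon genes, listed because EIF2AK2 is induced by interferon, were called about as often as all probes. EIF2AK2 itself is not in this list. Of 33 measured genes 1 rose and 3 fell with limma (1 and 11 at an unadjusted p under 0.05), 12.1% against 11.3% of all probes called in either direction, with a median of -0.15. In 9 of the 33 all matured arrays lay below all others, against 14.4% of all probes. Replicate 1 before maturation stood apart in 3 of these genes, which were named after their values had been seen. OAS2, an enzyme gene of the antiviral response, had levels of 4.70, 4.73 and 4.75 after maturation, against 7.59, 5.16 and 5.35 before it. MX2 had 3.89, 3.91 and 3.96 after, against 5.99, 3.78 and 3.71 before, and IFIT3 had 3.59, 3.57 and 3.69 after, against 6.05, 3.52 and 3.91 before. None of these 3 was called (limma adjusted p = 0.157, 0.492 and 0.322), with standard errors of 0.55, 0.53 and 0.55. The antiviral zinc finger gene ZC3HAV1 fell by 1.20 (SE 0.17, limma adjusted p = 0.00300), and the interferon factor genes IRF2 and IRF9 fell by 0.66 and 0.70 (limma adjusted p = 0.00659 and 0.0393), where ADAR is the gene that rose. With ribosomal protein genes held level IRF2 and IRF9 lost their calls, and IRF9 was also not called without any one matured array. MX1, an antiviral GTPase gene, had a value of -0.15 (limma adjusted p = 0.466), and 5 of the 33 genes lay under the lower quartile of every array. The 4 called genes became 8 without replicate 2 before maturation and 2 without any one matured array or replicate 3 before maturation.

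Haem genes, listed for EIF2AK1, held 3 that fell and 0 that rose among 17 measured with limma (7 and 1 at an unadjusted p under 0.05), with a median of -0.16. The called share was 17.6%, against 11.3% of all probes in either direction. Those that fell were the transporters FLVCR1 (-0.70) and ABCG2 (-1.07) and the haem-binding membrane protein PGRMC1 (-0.82), with limma adjusted p of 0.0222, 0.0248 and 0.0255. Each of these lost the call without replicate 1 or 2 after maturation, when 0 and 1 of the 17 genes were called (the 1 was BLVRA, a biliverdin reductase gene), and of the 3 FLVCR1 alone was called without replicate 3 after maturation. The enzymes of haem synthesis ALAS1 and FECH had values of -0.08 and -0.01 (limma adjusted p = 0.859 and 0.955), and FECH turned to 0.52 and was called with ribosomal protein genes held level. ALAS1 lay under the lower quartile on 2 arrays of each group.

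Stress granules gather mRNA stalled by phosphorylated eIF2. Of 10 measured genes for their proteins 3 fell and 0 rose with limma (5 and 0 at an unadjusted p under 0.05), with a median of -0.22. The share called lower was 30.0%, against 8.07% of all probes. PABPC1, the cytoplasmic poly(A)-binding protein gene, fell by 1.70 (SE 0.16, limma adjusted p = 4.06e-04), the scaffold partner gene CAPRIN1 by 0.87 (SE 0.11, limma adjusted p = 0.00178) and the granule nucleator gene G3BP1 by 0.73 (SE 0.14, limma adjusted p = 0.0131). G3BP1 lost the call without replicate 1 or 2 after maturation. Of 8 genes of tRNA synthetases and their scaffold 2 fell and 0 rose with limma (3 and 0 at an unadjusted p under 0.05), AIMP2 by 0.72 and RARS1 by 0.54 (limma adjusted p = 0.0116 and 0.0298), with a list median of -0.05 and 25% called lower against the same 8.07%. Neither was called without replicate 1 after maturation, and 1 was without replicate 2 or 3 of either group.

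Most measured markers of cumulus and granulosa cells were called lower after maturation, as EIF2AK3 and EIF2AK1 were, and a link between them was not tested. Of 15 measured markers 11 fell and 1 rose, with a median of -1.05 and a range from -4.41 to 3.95. The shares of all probes were 8.07% called lower and 3.21% called higher, beside which each marker list below is to be read. The summed level of the cumulus and granulosa markers on a linear scale was 3172 to 3421 after maturation and 8223 to 10930 before it. The listed markers FSHR, INHA, STAR, CYP11A1 and FOXL2 were not analysed here, and on an array no marker has a level of 0. The 16 oocyte markers had 3 that fell and 0 that rose with limma (3 and 2 at an unadjusted p under 0.05), a median of 0.05 and a summed level of 30030 to 30990 after and 31700 to 33800 before maturation. Markers of theca and stroma (2 of 11 rose, 1 fell), leukocytes and erythroid cells (1 of 8 rose and 0 fell with limma, 4 and 0 at an unadjusted p under 0.05) and endothelium (0 of 7 called with limma, 2 higher at an unadjusted p under 0.05) are given beside them. Their sums were 503 to 509 after and 554 to 634.9 before maturation for theca and stroma, 515.7 to 544.6 after and 437.1 to 473.6 before for leukocytes and erythroid cells, and 400.0 to 468.8 after and 390.9 to 418.8 before for endothelium. Sums of different lists hold different probes and were not compared. The part of the cumulus cells in the lower levels of EIF2AK3, EIF2AK1, PPP1R15A, PPP1R15B, HSPA5 and XBP1 was not tested.

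**Figure D3:**
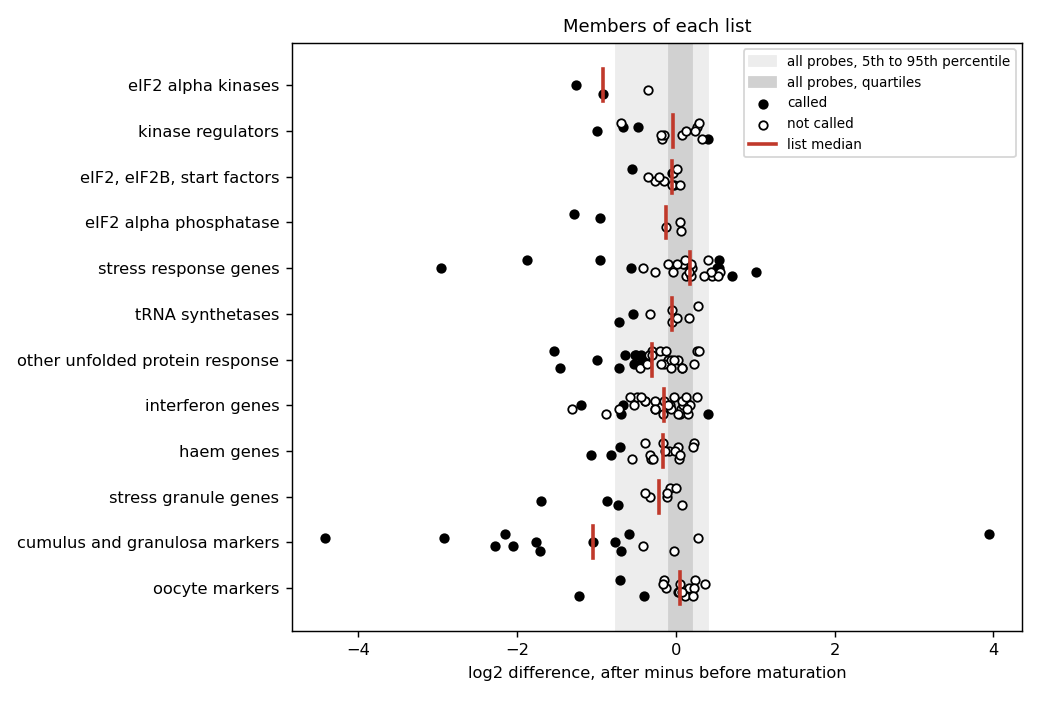
Log2 difference, after minus before maturation (horizontal axis), of each measured gene of the lists, with filled points for a limma adjusted p under 0.05, red bars for list medians and grey bands for the quartiles and the 5th to 95th percentiles of all probes. The kinases lie at or beyond the left edge of the bands except EIF2AK2, and the cumulus and granulosa markers have the lowest median (-1.05).

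The kinase results under each setting are shown together for the same comparison. EIF2AK3 kept a negative difference in all 18 alternatives and was called in 16 of them. EIF2AK1 was negative in all 17 alternatives that could be computed and called in 13. EIF2AK2 was called in 0 of its 18 alternatives with limma, its unadjusted limma p on the deposited scale being 0.0218.

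**Figure D4:**
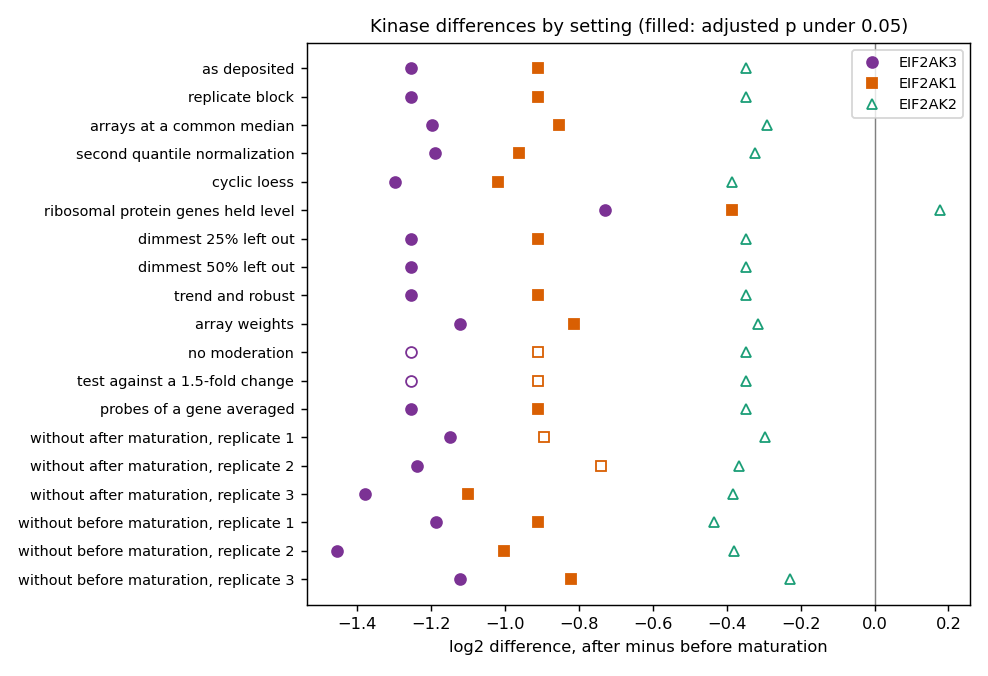
Log2 difference of EIF2AK3, EIF2AK1 and EIF2AK2, after minus before maturation (horizontal axis), under each setting (rows), with filled symbols for an adjusted p under 0.05. The order of the kinases is the same in every row that holds all of them, and holding ribosomal protein genes level moves all 3 to the right, EIF2AK2 past 0.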

How the data were processed

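Per the submitters' processing notes the authors made the deposited log2 expression values with RMA, which normally includes background correction, quantile normalization and summarisation of probe sets. Version, options and filters: not given in the sources used here. Values between 2.69 and 12.65, with RMA, were read as log2. Detection calls were not analysed here.

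Gene names came from the annotation of the array platform and were brought up to date by gene identifier with RefSeq names (assembly Sscrofa11.1). Of 12258 probes 10922 had 1 symbol, 268 several and 1068 none listed. For a listed gene with several probes the brightest was used. Sequences of the genes and proteins were not used here.

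The difference of matured minus uncultured pools was fitted for every probe by lmFit and eBayes of limma 3.58.1 (R 4.3.3). Two-sided p-values were adjusted by Benjamini-Hochberg across the probes fitted, and a probe was called at an adjusted p under 0.05. Lists are described by counts and medians, with no test of a list. Ribosomal protein genes served for 1 scaling. Of 41 measured 22 fell and 0 rose with limma, against 8.07% and 3.21% of all probes, with a median of -0.56. In 30 of the 41 the groups did not overlap in the lower direction, against 14.4% of all probes. Named were the kinases, 25 fixed genes where measured, up to 4 genes per list by smallest p among the called ones (in lists with fewer than 2 calls, the 2 smallest) and the 3 most correlated genes of each kinase. The ribosomal genes RPS3A, RPS13, RPL12 and RPS23 that it also gave fell by 1.11, 1.00, 0.68 and 0.91. The members and lists were chosen with earlier results of these data known.

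Deviations from the group mean were weakly and positively correlated between arrays of the same number (correlations of 0.283, 0.120 and 0.142). Between arrays of unlike number the correlations ran from -0.17 to 0.02. These values do not establish a pairing, and the labels call the arrays only biological replicates. No label says that the pools came from separate animals, so p-values cover only the variation among these pools, which may be technical. The fit without the block was kept. On simulated data of 12258 probes for this comparison, limma called 40 of the 40 probes lowered by 2 log2 units, 35 of those lowered by 1, 34 of those raised by 1, 15 of those lowered by 0.5 and 12 of those raised by 0.5. It also called 5 unchanged probes. The simulated noise was independent between probes and arrays and followed the variance model that limma fits. These counts therefore do not show how the test performs on the real arrays. Exact tests and figures used Python 3.11.15, scipy 1.17.1, pandas 2.3.3 and matplotlib 3.10.9. The alternatives were the replicate block, 4 scalings, 2 filters against dim probes, no moderation, trend and robust fits, array weights, a test against a 1.5-fold change, averaged probes and leaving out each array.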

Additional observations from a re-analysis of the deposited data

How the results depend on the processing

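EIF2AK3 and EIF2AK1 kept their direction under each alternative that could be computed, and EIF2AK1 was among the probes left out with the dimmest 50%. Both lost the call without moderation of the variances (-1.26 and -0.91, adjusted p = 0.102 and 0.144) and in a test against a 1.5-fold change (-1.26 and -0.91, adjusted p = 0.136 and 1.0), which by construction asks for a larger change. With ribosomal protein genes held level EIF2AK2 turned to 0.18, and of the other named genes called with or without that scaling EIF2B5 turned to 0.47, ATF4 to 0.43, ASNS to 0.49, MX1 to 0.38, FECH to 0.52, HSPA8 to 0.056, NUCB2 to 0.0069, SIKE1 to 0.10 and PLXNA2 to 0.014. That scaling adds the same amount to every difference. Without 1 array, EIF2AK1 ranged from -1.10 to -0.74, EIF2AK2 from -0.44 to -0.23 and EIF2AK3 from -1.46 to -1.12. The differences of changes ranged from -0.50 to -0.25 (EIF2AK3 minus EIF2AK1), from -1.08 to -0.75 (EIF2AK3 minus EIF2AK2) and from -0.72 to -0.38 (EIF2AK1 minus EIF2AK2).

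A replicate block gave 621 probes called higher, and the paired values of the kinases were -0.91, -0.35 and -1.26 (EIF2AK1, EIF2AK2 and EIF2AK3) with adjusted p of 0.00164, 0.0621 and 0.00136. The block changed the call of 1 named gene, LDHA, and of 0 kinases with limma. The count of probes called higher was 915 with arrays at a common median, 596 after a second quantile normalization, 254 with cyclic loess, 9989 with ribosomal protein genes held level, 211 without the dimmest 50%, 50 without moderation, 27 against a 1.5-fold change and 103 to 434 without 1 array. The count of probes called lower was 479 with ribosomal protein genes held level, 147 without moderation, 222 against a 1.5-fold change and 531 to 1013 without 1 array.

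With ribosomal protein genes held level the called members were mostly higher. They were 11 of the regulators (10 higher, 1 lower), 7 of the eIF2 and eIF2B genes (7, 0) and 5 phosphatase genes (3, 2). Also called were 25 of the response genes (22 higher, 3 lower), 5 tRNA synthetase genes (5, 0) and 20 interferon genes (18, 2). Haem genes had 9 calls (8 higher, 1 lower) and stress granule genes 7 (5, 2). Without moderation the called members were 1, 0, 0, 2, 0, 0, 0 and 0 of the same lists and 0 of the other unfolded protein response genes. Against a 1.5-fold change they were 0, 0, 0, 1, 0, 0, 0 and 1, and 1 of the other unfolded protein response genes. With cyclic loess 2 regulators were called, and after a second quantile normalization 0 eIF2 and eIF2B genes and 1 tRNA synthetase gene. Without 1 array the counts ran from 1 to 5 for regulators, 0 to 1 for eIF2 and eIF2B, 0 to 2 for phosphatase, 5 to 12 for response, 0 to 2 for tRNA synthetase, 4 to 9 for other unfolded protein response, 2 to 8 for interferon, 0 to 3 for haem and 2 to 3 for stress granule genes. Holding ribosomal protein genes level adds the same amount to every difference, so under that scaling calls move to the higher side by construction. The causes of the other changes were not tested.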
